A study of Mus musculus with 18 samples.

Results

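The mouse genome carries 105 cytochrome P450 genes among the 35630 genes of the deposited annotation, taken here as every gene whose symbol starts with Cyp and a digit. They were read through H3K9me3, trimethylation of lysine 9 on histone H3, in mouse embryonic stem cells. Of the 105, 100 were listed as genes, 4 as pseudogenes (Cyp4b1-ps2, Cyp2d37-ps, Cyp4f41-ps and Cyp2c53-ps) and 1 as an antisense transcript (Cyp4x1os, whose peaks cannot be told apart from those of Cyp4x1). The set was divided into 74 clustered genes, which were Cyp2, Cyp3 or Cyp4 genes with another gene of the same family within 200 kb, and 31 single genes. The 74 fell into 9 clusters. Joining neighbours at 100 kb gave 14 clusters and at 500 kb gave 7, with 74 clustered and 31 single genes each time. Each gene was given a window, its transcripts plus 5 kb on each side, and the percent of the window under called peaks is called the covered percent. Single genes are not all isolated. The windows of Cyp11b1 and Cyp11b2 overlap, as do those of Cyp1a1 and Cyp1a2 and those of Cyp26a1 and Cyp26c1.

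The study asked which factors build and keep H3K9me3 heterochromatin. All cells were of the mouse embryonic stem cell line E14TG2a, grown without feeders on gelatin in medium with serum and LIF, a cytokine that holds embryonic stem cells undifferentiated. The 3 genotypes compared were wild-type, Uhrf1 KO (UHRF1, a ubiquitin ligase that brings the maintenance DNA methyltransferase DNMT1 to replicated DNA) and Dhx9 KO (DHX9, an RNA helicase), with 2 H3K9me3 libraries each and no treatment named for these 6 samples. The methods describe Uhrf1 KO lines made clonally with CRISPR-Cas9 in cells that carry a reporter on which a TetR-KRAB protein can nucleate H3K9me3. How the Dhx9 KO cells were made is not given in the sources used here. The labels do not say whether the libraries of a genotype came from separate clones, so a spread between them may be technical. The peak lists hold no RNA, and neither the loss of UHRF1 or DHX9 nor a marker of the stem cells could be read from them.

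Cytochrome P450 enzymes are haem-containing monooxygenases that insert an oxygen atom into a substrate, with electrons handed over by P450 reductase in the endoplasmic reticulum or by ferredoxin in mitochondria. The single genes include ancient enzymes with one main task, such as the making of steroid hormones, bile acids and active vitamin D or the clearance of retinoic acid. The Cyp2, Cyp3 and Cyp4 families grew by tandem duplication, lie in arrays of near-identical copies and act on drugs, pheromones, fatty acids and arachidonic acid, mostly in liver, kidney and gut. Most are silent in embryonic stem cells. H3K9me3 is a mark of heterochromatin, laid down over repeats and some silent gene families, and KRAB zinc finger proteins, of which ZFP57 is one, can bring the enzymes that write it.

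The 250 bases before a RefSeq start site of 6 of these genes are printed first, because the genes differed in whether a peak at a start site was called in the Uhrf1 KO. The letters are those of RefSeq on GRCm38.p6, read 5′ to 3′ on the strand of the gene, with each CpG, the dinucleotide whose methylation UHRF1 helps to copy, in capitals. The first 3 belong to single genes with a peak within 1 kb of the start site in both wild-type libraries and in neither Uhrf1 KO library. They are Cyp2e1 (chr7:140763569-140763818, plus strand, 2 CpGs), Cyp26c1 (chr19:37685430-37685679, plus strand, 3 CpGs) and Cyp1b1 (chr17:79715062-79715311, minus strand, 12 CpGs). In the deposited annotation Cyp26c1 and Cyp1b1 reach further out, to chr19:37685195 and chr17:79715330. The bases printed for Cyp26c1 and Cyp1b1 therefore lie inside the annotated span of the gene.
Cyp2e1: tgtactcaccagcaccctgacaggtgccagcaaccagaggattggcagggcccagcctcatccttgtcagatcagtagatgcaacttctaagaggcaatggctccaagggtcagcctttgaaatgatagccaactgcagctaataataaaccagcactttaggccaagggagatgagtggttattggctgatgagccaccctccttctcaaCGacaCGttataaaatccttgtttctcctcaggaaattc
Cyp26c1: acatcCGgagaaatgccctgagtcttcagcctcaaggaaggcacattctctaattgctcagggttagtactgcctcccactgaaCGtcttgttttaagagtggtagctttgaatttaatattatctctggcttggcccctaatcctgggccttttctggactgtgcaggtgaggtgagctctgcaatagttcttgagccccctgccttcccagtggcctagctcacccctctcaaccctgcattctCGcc
Cyp1b1: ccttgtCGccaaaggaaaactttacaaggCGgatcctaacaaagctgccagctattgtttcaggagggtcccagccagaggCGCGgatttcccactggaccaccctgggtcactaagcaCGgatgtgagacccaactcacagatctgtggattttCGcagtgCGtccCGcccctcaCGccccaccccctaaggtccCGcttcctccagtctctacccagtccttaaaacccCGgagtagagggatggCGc

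The other 3 had such a peak in every library of both genotypes. They are the single gene Cyp8b1 (chr9:121916306-121916555, minus strand, 4 CpGs) and the clustered genes Cyp2d9 (chr15:82452127-82452376, plus strand, 1 CpG) and Cyp2c40 (chr19:39812815-39813064, minus strand, 1 CpG).
Cyp8b1: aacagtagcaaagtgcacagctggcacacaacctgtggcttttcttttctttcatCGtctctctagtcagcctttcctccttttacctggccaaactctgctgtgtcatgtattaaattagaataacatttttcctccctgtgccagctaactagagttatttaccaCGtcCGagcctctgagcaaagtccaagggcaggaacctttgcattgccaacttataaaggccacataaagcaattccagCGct
Cyp2d9: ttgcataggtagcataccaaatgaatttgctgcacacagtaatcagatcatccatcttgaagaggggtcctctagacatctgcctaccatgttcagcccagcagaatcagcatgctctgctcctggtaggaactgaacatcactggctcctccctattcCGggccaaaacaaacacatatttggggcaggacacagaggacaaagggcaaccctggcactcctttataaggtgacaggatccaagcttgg
Cyp2c40: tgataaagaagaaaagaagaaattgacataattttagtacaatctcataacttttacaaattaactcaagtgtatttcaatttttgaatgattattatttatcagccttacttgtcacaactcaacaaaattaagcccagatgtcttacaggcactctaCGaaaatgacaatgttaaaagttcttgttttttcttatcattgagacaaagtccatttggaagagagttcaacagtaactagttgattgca

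RefSeq gave 88 promoters for 78 of the 105 genes, and these were poor in CpG. The median was 2 CpGs in 250 bases, against 6 over all 32851 promoters of the table. The clustered genes had a median of 2 over 64 promoters and the single genes 4 over 24. The TATA box letters TATAAA, sought on both strands, stood in 34.1% of the Cyp promoters and in 12.4% of all promoters. GCGTG, the core of the element bound by the aryl hydrocarbon receptor, stood in 19.3% and 28.2%, and TGCCGC, the letters ZFP57 reads, in 9.09% and 8.68%. The 12 promoters of the 9 genes that lost a start-site peak in the Uhrf1 KO had a median of 3 CpGs, and the 13 promoters with a peak in all 4 libraries a median of 2.

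The 6 peak lists held 70195 to 125453 peaks, called in bins of 200 bases, that covered 203 to 416 Mb and 6703081 to 20875020 ChIP reads. Uhrf1 KO 1 had the fewest peaks, the least length covered and the fewest reads in peaks, and Uhrf1 KO 2 had 93916 peaks over 342 Mb and 16966576 reads. Where the same peak was called in 2 libraries, the background read count beside it was the same in 100% of peaks for wild-type against Dhx9 KO, and in 1.85% to 4.29% for either Uhrf1 KO list against the other genotypes. Genotype and background sample therefore cannot be told apart for the Uhrf1 KO. Dhx9 KO 1 stood apart on 2 chromosomes, with 28.5% of chromosome 4 covered (16.4% and 16.1% in wild-type, 14.7% in Dhx9 KO 2) and 13.7% of chromosome 8 (29.9%, 29.5% and 30.0%). A list holds no reads outside its peaks, so a peak called lost is one that was not called, and reads from near-identical P450 copies may have been placed on the wrong copy.

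In wild-type cells H3K9me3 lay on most P450 genes and its median coverage was above that of all genes. A peak was called in the windows of 96 and 97 of the 105 genes, 91.4% and 92.4%, against 64.8% and 64.8% of all genes. The median covered percent was 23.7% and 22% for Cyp genes and 8.86% and 8.30% for all genes. The Cyp windows were longer, with a median of 31.2 kb against 21.7 kb, and no test of the difference was run. Among windows of 35 to 70 kb, the 31 clustered Cyp genes had medians of 9.16% and 11.5% against 9.35% and 8.95% for the 6035 genes in all, and 14% and 15.7% of their bases were covered against 18.3% and 17.5%. At that length the clustered genes lay below all genes in the share of bases covered and on either side of them in the median, while a peak was called in 90.3% and 93.5% of them against 73.8% and 73.9%. Clustered genes had medians of 23.9% and 21.2% and single genes 21.1% and 22.1%. The gap between the clustered and single medians was 0.984 points, and it was 5.93 with peaks of a log2 fold of at least 1, 6.16 with equal numbers of peaks per list, -3.44 with no flanks and -2.33 with 20 kb flanks, so its direction rests on the setting.

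**Figure D1:**
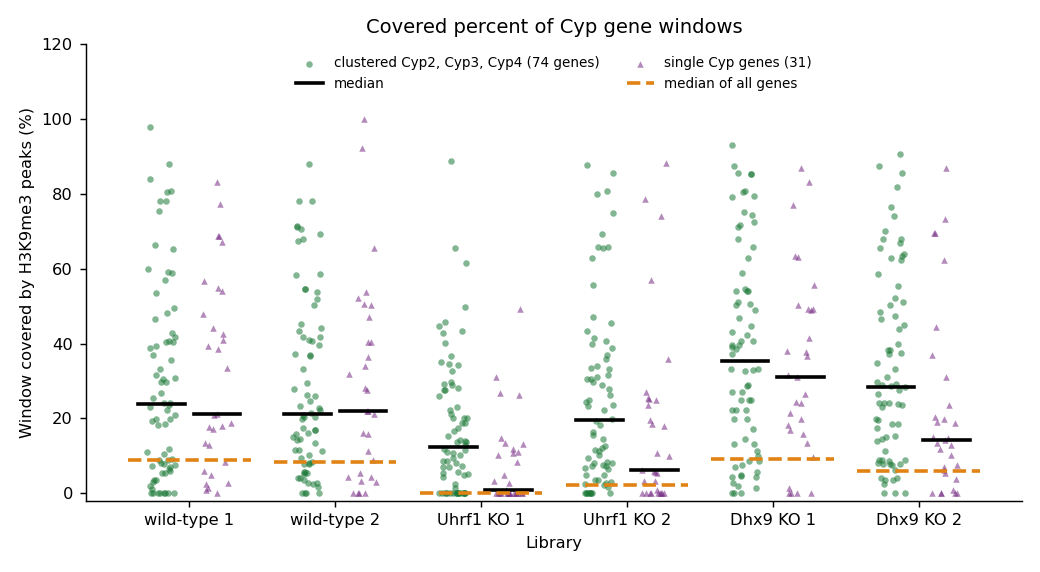
Covered percent of the window, in percent of its bases under H3K9me3 peaks, for each clustered and single Cyp gene in each of the 6 libraries, with the medians marked. The clustered medians run from 12.4% in Uhrf1 KO 1 to 35.3% in Dhx9 KO 1, and the single medians from 0.851% to 31.2% in the same libraries.

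The most covered gene was Cyp21a1, the steroid 21-hydroxylase of the adrenal cortex (chr17:34801348-34804426), with 83.2% and 100% of its window under peaks. Cyp11b2, the aldosterone synthase, had 68.7% and 92.2%. The other 8 of the 10 highest means were genes of the Cyp2d array, which holds the mouse relatives of the human debrisoquine hydroxylase. Cyp2d34 had 88% and 88%, Cyp2d37-ps 97.7% and 71.2%, Cyp2d12 77.9% and 77.9% and Cyp2d26 75.3% and 78.1%. Cyp2d10, Cyp2d11, Cyp2d9 and Cyp2d13 lay between 65.4% and 80.6% in both libraries. By their mean, the 10 stood between the percentiles 93.7 and 99.2 of all genes. At the other end, Cyp2j9, Cyp2b13, Cyp2w1 and Cyp2c37 had no peak in any of the 6 libraries.

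The 9 clusters differed from each other more than clustered genes did from single ones. The Cyp2d array on chromosome 15 (10 genes) had 58.3% and 54.4% of its length covered in wild-type, the Cyp3a array on chromosome 5 (8 genes, the family of the major drug oxidase) 41.7% and 42%, and the second Cyp2a/2b/2f/2t array on chromosome 7 (8 genes) 39.6% and 40.0%. The first Cyp2a/2b/2s array on chromosome 7 (5 genes) had 18% and 20.1%, and the Cyp4a/4b/4x array on chromosome 4 (12 genes, fatty acid omega-hydroxylases) 24.2% and 24.8%. The Cyp4f genes on chromosome 17 made an array of 6 genes at 39.4% and 35.3% and one of 3 genes at 21.8% and 20.4%. The least covered were Cyp2c on chromosome 19 (15 genes) at 10.5% and 12.4% and Cyp2j on chromosome 4 (7 genes, arachidonic acid epoxygenases) at 12.6% and 11.9%.

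Within an array the mark did not always sit on the genes. In the Cyp2d array, transcripts were 93.2% and 88.2% covered in wild-type and the DNA between them 53.9% and 50.1%. The Cyp3a array was the other way round, with 22% and 21.1% inside transcripts and 51.5% and 52.5% between them. The Cyp2c array had 6.13% and 8.47% inside and 16% and 17.3% between. These shares are descriptions of single loci, and no test was run on them.

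**Figure D2:**
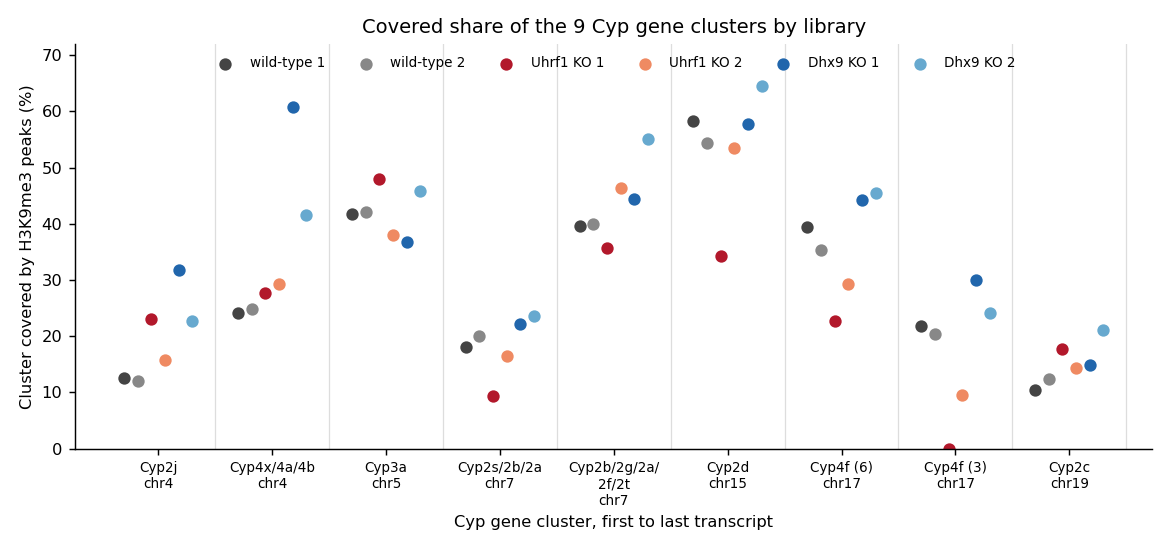
Percent of each of the 9 Cyp clusters under H3K9me3 peaks in each library, with the 2 libraries of each genotype as separate points. The Cyp4a/4b/4x array reaches 60.8% and 41.5% in the Dhx9 KO libraries from 24.2% and 24.8% in wild-type, and the smaller Cyp4f array has 0% in Uhrf1 KO 1.

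The Uhrf1 KO asked what remains of H3K9me3 without a factor that the maintenance of DNA methylation needs. DNA methylation was not measured at these genes. The paper tested reads in consensus peaks of these genotypes and called few of them different, more of them increased than decreased. Peaks called or not called, as counted here, are another measure. At 8 of the 105 P450 genes the window had a peak in both wild-type libraries and in neither Uhrf1 KO library, against a background of 10.5% of all genes, and 0 gained one (background 0.831%). The 8 were Cyp3a13, Cyp26b1, Cyp2e1, Cyp2ab1, Cyp26c1, Cyp17a1 and the neighbours Cyp4f14 and Cyp4f13. Of windows with a peak in both wild-type libraries, 8.6% of Cyp windows, 3.03% of clustered ones and 22.2% of single ones lost it, against 17.6% of all genes. Leaving out Uhrf1 KO 2 raised the count from 8 to 21, which rests on Uhrf1 KO 1, the library with the fewest reads in peaks, alone. In Uhrf1 KO 1 a peak was called in 39.9% of all windows and 68.6% of Cyp windows, against 64.8% and 91.4% in wild-type 1. The share of all genes lost without Uhrf1 KO 2 was not counted, so the rise is not a result about Cyp genes. At the start site 9 genes lost a peak (background 7.88%) and 4 gained one (background 0.679%). Of start sites with a peak in both wild-type libraries, 23.1% of the 39 at Cyp genes lost it, against 33.6% over all genes.

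The 9 start-site losses were at Cyp4b1, Cyp2b19, Cyp2e1, Cyp1a1, Cyp2ab1, Cyp4f15, Cyp4f14, Cyp1b1 and Cyp26c1, and the 4 gains at Cyp4a32, Cyp3a11, Cyp2r1 and Cyp4v3. Those gains were made in windows that already held a peak elsewhere. Over whole windows, 45 Cyp genes had both Uhrf1 KO libraries below both wild-type libraries (background 34.6%) and 12 had both above (background 5.6%). These backgrounds, here and below, are shares of all 35630 genes, and a gene with no covered base can be in neither count. Among genes with a covered base, the 45 stood in 100 Cyp genes and the background was 12312 of 25929 genes, so Cyp genes were not below more often. The 45 were 27 of the 74 clustered and 18 of the 31 single genes. No window passed a Benjamini-Hochberg adjusted p of 0.05 in limma, of 100 Cyp windows or of 25929 tested, and the smallest adjusted p among Cyp genes was 0.0572. At an unadjusted p under 0.05, 19 Cyp windows were lower (background 26%) and 2 higher (background 1.72%). In simulated tables of these libraries, limma called 0 of 200 windows shifted by 60 points, so the count of 0 says nothing of stability. With 2 libraries against 2, an exact permutation test cannot go below 0.33.

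The 3 retinoic acid hydroxylases, which clear the morphogen in the embryo, all lay below wild-type (background 34.6%). Cyp26b1 (chr6:84571414-84593908) was covered over 33.5% and 40.3% of its window in the wild-type libraries and 0% and 0% in the Uhrf1 KO libraries, a difference of -36.9 ± 4.66 percentage points (limma estimate ± SE, adjusted p = 0.0572). Cyp26c1 (chr19:37685195-37693332), whose promoter is printed above, had 38.6% and 22.1% and then 0% and 0%, or -30.3 ± 7.12 percentage points (limma estimate ± SE, adjusted p = 0.103). Cyp26a1 had 8.23% and 5.33% and 0% and 0.985%. Neither Uhrf1 KO library reached the lower wild-type value at any of the 3 genes. The Cyp26b1 loss included an 8.6 kb region over exons at chr6:84574601-84583200, with 380 and 308 reads under wild-type peaks, and 3 further regions in its flanks. The region lost at Cyp26c1, chr19:37685201-37692200, spanned a start site of the gene and held 220 and 124 reads.

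The vitamin D genes behaved otherwise. Their window GC content was 39.7% for Cyp2r1, in the lowest quintile, 52.2% for Cyp27b1 and 47.6% for Cyp24a1. Over all genes of the lowest quintile, covered bases were 118% and 111% of wild-type in the Uhrf1 KO libraries. Cyp2r1, the 25-hydroxylase, had 18.8% and 22% in wild-type and 26.3% and 25.2% in the Uhrf1 KO, with both knockout libraries above both wild-type ones and a start-site peak in the knockout libraries alone (chr7:114562201-114564200, 33 and 74 reads). A 1 kb region in an intron of the same gene, chr7:114560401-114561400, was lost, with 83 and 71 reads in wild-type. Cyp27b1, which makes the active hormone, had 54% and 15.8% and 13.2% and 18.4%, with the wild-type libraries far apart. Cyp24a1, which destroys it, had 13.4% and 0% and 0% and 9.92%.

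Among the 6 steroid genes 5 had both Uhrf1 KO libraries below wild-type (background 34.6%), and all 6 were single genes. Cyp17a1 (chr19:46667165-46673000), the 17-hydroxylase and lyase on the way to cortisol and androgens, had 48% and 47% in wild-type and 0% and 0% in the Uhrf1 KO, a difference of -47.5 ± 4.60 percentage points (limma estimate ± SE, adjusted p = 0.0572). Its widest lost region, chr19:46654201-46666400, lay in the flank of Cyp17a1 and also overlapped Wbp1l and Gm36602. Cyp11a1, which cleaves the cholesterol side chain, had 44.2% and 40.5% and 14.9% and 27.2%, and its 1 lost region, 7.80 kb long (258 and 294 reads), lay in its flank and overlapped the neighbours Ccdc33 and Gm16130. Cyp19a1, the aromatase, had 40.8% and 36.5% and 10.8% and 25.3%, and lost 2 regions over exon and intron. Cyp11b1, the 11-beta-hydroxylase, had 54.9% and 50.4% and 0% and 35.8%. Cyp21a1 was below its wild-type values at 31% and 78.6%, with a start-site peak in all 4 libraries. Cyp11b2, beside Cyp11b1, was the exception with 49.1% and 88.3%, which overlapped its wild-type range.

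The 3 genes induced through the aryl hydrocarbon receptor by dioxins and other planar compounds also lay below wild-type in both libraries (background 34.6%). Cyp1a2 had 56.6% and 50.6% in wild-type and 0% and 17.9% in the Uhrf1 KO, a difference of -44.6 ± 9.08 percentage points (limma estimate ± SE, adjusted p = 0.0847). Its neighbour Cyp1a1 had 18% and 28.1% and 0% and 3.37%, and Cyp1b1 on chromosome 17 had 21.1% and 27.5% and 4.82% and 10.8%. Cyp1b1 and Cyp1a1 had no start-site peak in either Uhrf1 KO library. The Cyp1b1 promoter printed above holds 12 CpGs, the most of the 6.

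Of the 6 genes listed for drugs and foreign compounds, 5 had both Uhrf1 KO libraries below wild-type (background 34.6%). Cyp2e1 (chr7:140763832-140774981), the ethanol-inducible enzyme, had 42.6% and 34% in wild-type and 0% and 0% in the Uhrf1 KO, a difference of -38.3 ± 5.14 percentage points (limma estimate ± SE, adjusted p = 0.0572), and lost 3 regions at its start site, over an exon and in its flank. Cyp2b10, the phenobarbital-inducible enzyme, had 59.9% and 58.4% and 8.73% and 41.4%, and Cyp2d22 had 35.5% and 23.3% and 8.11% and 10.1%. Cyp3a11, a major steroid and drug oxidase of mouse liver, had 40.4% and 37% and 29.1% and 28.9%, yet it carried a start-site peak in both Uhrf1 KO libraries and in neither wild-type one. Its relative Cyp3a13, which lies alone on the same chromosome, had 4.83% and 4.31% and 0% and 0%. Cyp2c29 had no peak in any of these 4 libraries.

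Fatty acid and sterol enzymes were mixed. Cyp4f14, a leukotriene and fatty acid omega-hydroxylase, had 30.5% and 36.8% in wild-type and 0% and 0% in the Uhrf1 KO, a difference of -33.7 ± 4.35 percentage points (limma estimate ± SE, adjusted p = 0.0572). Cyp2u1 had 17.7% and 21.2% and 13.3% and 6.28%, and Cyp4a14 had 7.81% and 7.81% and 5.81% and 6.81%. Cyp4v3 had 12.8% and 11.2% and 11.8% and 23.5%, and a 7 kb region at its start site, chr8:45327201-45334200, was called in the knockout libraries alone with 102 and 270 reads. At Cyp4a10 the groups overlapped, with 23.7% and 20.5% in wild-type and 14.2% and 33.1% in the Uhrf1 KO, and so they did at Cyp2j6, with 2.06% and 3.44% and 4.47% and 2.75%.

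Cyp46a1 (chr12:108334267-108362234), the brain cholesterol 24-hydroxylase, had the largest difference of the sterol genes. It was covered over 67% and 53.8% in wild-type and 3.25% and 19.6% in the Uhrf1 KO, a difference of -49 ± 10.0 percentage points (limma estimate ± SE, adjusted p = 0.0853), and lost a 9.60 kb region over exons at chr12:108336801-108346400 (281 and 342 reads). Cyp27a1, of bile acid synthesis, had 17.3% and 16.1% and 0% and 5.76%. Cyp8b1, the sterol 12-alpha-hydroxylase, kept its start-site peak with 77.4% and 52.3% and 26.8% and 74%. Cyp51, the lanosterol demethylase that dividing cells need, was the 1 sterol gene with both knockout libraries above, at 2.35% and 2.94% and 11% and 5.29%. Cyp7a1, Cyp7b1 and Cyp39a1 were at or below 8.93% in all 4 libraries. The little-known Cyp20a1 had 5.84% and 4.38% and 10.2% and 24.8%, a difference of 12.4 ± 6.14 percentage points (limma estimate ± SE, adjusted p = 0.305), and Cyp2s1 24.1% and 24.6% and 0% and 15.5%.

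**Figure D3:**
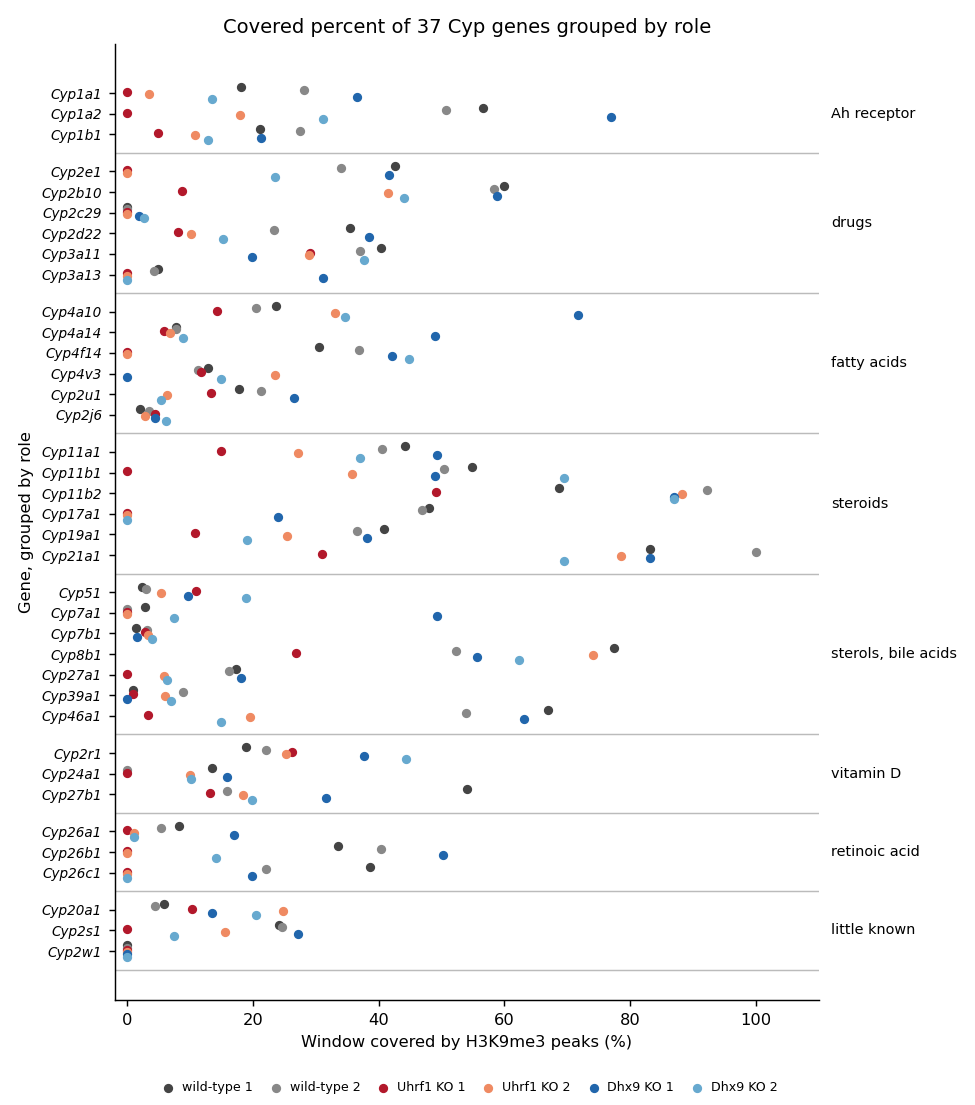
Covered percent of the window for the 37 Cyp genes grouped by role, in each of the 6 libraries. Of the 37, 22 had both Uhrf1 KO libraries below both wild-type libraries (background 34.6% of all genes) and 3 had both above (background 5.6%). In the Dhx9 KO 2 had both below (background 17.5%) and 9 both above (background 10.8%).

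The clustered genes kept more of their mark than the single ones in the Uhrf1 KO. Covered bases summed over clustered windows were 73.5% and 88.4% of the wild-type mean in Uhrf1 KO 1 and 2, and over single windows 27.1% and 62.9%, with all genes at 32.5% and 72.2%. With the knockout libraries averaged this was 80.9% against 45.0%, a gap of 35.9 points that lay between 25.4 and 46.3 on leaving out each library in turn. Base by base, 404 kb of clustered windows were covered in both wild-type libraries, of which 46.2% stayed covered in both Uhrf1 KO libraries and 19.3% in neither. Of 180.4 kb in single windows, 20.9% stayed covered in both and 43.7% in neither. The rest of each was covered in only 1 of the Uhrf1 KO libraries. The gap is a description, since genes of an array share their peaks and neighbours and some windows of single genes overlap.

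The arrays themselves were far apart. Cyp2c had 143% and 124% of its wild-type covered bases in the Uhrf1 KO libraries, and Cyp2j 164% and 119.6%. Cyp3a had 118% and 79.3% and the Cyp4a/4b/4x array 72.4% and 88.5%. The Cyp2 arrays on chromosome 7 had 24.8% and 75.5% for the first and 36.8% and 87.1% for the second, and Cyp2d had 43.3% and 89.3%. The Cyp4f array of 6 genes had 27.5% and 59.5% and the one of 3 genes 0% and 41.4%.

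Cyp2d11 had 78.2% and 71.3% in wild-type and 0% and 30.9% in the Uhrf1 KO, a difference of -59.3 ± 14 percentage points (limma estimate ± SE, adjusted p = 0.104), and Cyp2d26 had 75.3% and 78.1% and 0% and 55.8%. In the same array Cyp2d12 had 77.9% and 77.9% and 88.9% and 87.8%, above wild-type in both. The 5 largest differences upward among Cyp genes were Cyp3a44, Cyp2j13, Cyp2c67, Cyp4a12a and Cyp20a1, of which 4 were clustered. Cyp2c67 had 9.16% and 8.36% and 27.6% and 24.3%, a difference of 17.2 ± 3.94 percentage points (limma estimate ± SE, adjusted p = 0.0992). Cyp2j13 had 23% and 16% and 35.2% and 38.7%, Cyp4a12a 18.2% and 15.9% and 34.3% and 25%, and Cyp3a44 19.8% and 45.1% and 65.6% and 40.8%. At Cyp3a44 the groups overlapped, since Uhrf1 KO 2 lay between the wild-type libraries.

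Base composition moved with this gap. Clustered windows had a median GC content of 42.1% and single windows 46.5% (all genes 44.6%), and repeats masked in the genome made up 36.0% and 23.1% (all genes 26.0%). Over all genes sorted into quintiles by GC content, covered bases relative to wild-type ran from 118% and 111% in the lowest quintile to 9.84% and 42.9% in the highest. In the lowest quintile clustered genes had 149% and 113% (23 genes) and single genes 105% and 109% (4 genes), and in the second the order was the other way round, with 96.1% and 93.4% (24 genes) against 113% and 233% (4 genes). In the third quintile clustered genes had 32.7% and 78.2% (16 genes) and single genes 13.1% and 41.7% (7 genes), a mean gap of 28.1 points. In the fourth quintile they had 32.2% and 74.1% (10 genes) and 24.2% and 63.4% (8 genes), a mean gap of 9.35 points. All 15 Cyp2c windows were at or below 41.6% GC, and the 10 Cyp2d windows at or above 44.8%. The part of base composition in the gap was not tested beyond these values. Bases lost in both Uhrf1 KO libraries were masked repeat in 30.0% of clustered and 15.0% of single cases, and bases kept in both in 44.2% and 27.9%.

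**Figure D4:**
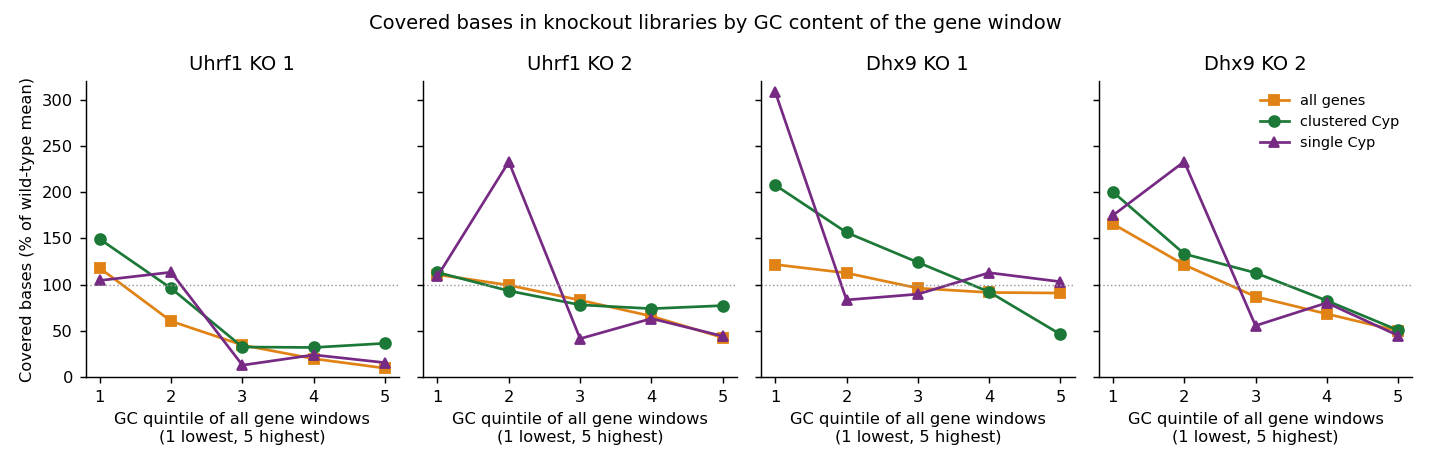
Covered bases in each knockout library, as a percent of the wild-type mean, by quintile of all genes in window GC content, for all genes and for clustered and single Cyp genes, where the 2 lowest quintiles hold 4 single genes each. In Uhrf1 KO 1 the line of all genes runs from 117.9% in the lowest quintile to 9.84% in the highest.

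When peaks were merged over both genotypes, 320 regions lay at P450 genes. Of these, 47 were lost, 14.7% against a background of 13.7%, and 11 were gained, 3.44% against 3%. Of regions called in both wild-type libraries, 22.7% of those at Cyp genes were lost, against 24.2% of all. Regions at clustered genes were lost in 22 of 241 cases (9.13%) and those at single genes in 25 of 79 (31.6%), 55.6 kb and 113 kb in all. Of the 11 gained regions 9 were at clustered genes (3.73% of 241) and 2 at single genes (2.53% of 79), and 5 lay in the Cyp2c array. Gained and lost regions had the same median length of 2.60 kb. Examples of gained regions are chr19:39627801-39629800 in an intron of Cyp2c67 (42 and 71 reads), chr4:96061001-96064000 over an exon of Cyp2j13 (36 and 77 reads) and chr5:145878201-145881200 at the start of Cyp3a11 (44 and 68 reads). Of the lost regions 7 spanned a start site, 16 another exon, 8 an intron and 16 only flanks.

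Only 5 regions at Cyp genes were called across at least 80% of their length in all 4 libraries, and their read counts could be tested. None passed the 0.05 threshold of edgeR's quasi-likelihood test (backgrounds 5.54% lower and 3.2% higher over 2528 regions), 1 was lower at an unadjusted p under 0.05 (backgrounds 13.4% lower and 12.2% higher), and DESeq2 also called 0. The widest, chr5:145656401-145694000 at Cyp3a41a, held 5359 and 5064 reads in wild-type and 3075 and 5949 in the Uhrf1 KO, a difference of 0.09 on the log2 scale (edgeR's quasi-likelihood test, Benjamini-Hochberg adjusted p = 0.738) after scaling to called length and library. The region chr15:82552601-82570600 at Cyp2d12 held 1158 and 1112 reads and then 499 and 1276, or -0.29 on the log2 scale (edgeR's quasi-likelihood test, Benjamini-Hochberg adjusted p = 0.119). The lower raw counts stood in Uhrf1 KO 1, which had the fewest reads in peaks, in both cases. In simulated counts of such regions the same test recovered 189 of 200 changed 2-fold. The 47 lost and 11 gained regions could not enter this test, so its 0 calls say nothing of them.

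The Dhx9 KO asked whether an RNA helicase is needed for the mark. No Cyp window lost its peak in both libraries (0 of 105, background 1.73%) and 1 gained one (background 1.54%), Cyp2c29, with 0% and 0% of its window covered in wild-type and 1.86% and 2.61% in the Dhx9 KO. Start-site peaks were lost at Cyp1b1 and Cyp26c1 (background 2.12%) and gained at Cyp2j5, Cyp4a10, Cyp4a32, Cyp3a57 and Cyp2r1 (background 1.34%). In covered percent, 38 Cyp windows had both Dhx9 KO libraries above both wild-type libraries (background 10.8%) and 12 had both below (background 17.5%). A covered base was found in 101 Cyp genes and in 27234 of all genes, of which 3846 were above and 6247 below. Of the 38, 34 were clustered genes. No window passed an adjusted p of 0.05 in limma, of 101 Cyp windows or 27234 tested, and at an unadjusted p under 0.05 there were 6 higher (background 3.07%) and 2 lower (background 6.3%). limma called 0 of 200 windows shifted by 60 points in simulated tables of this comparison too.

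The genes with more coverage lay mainly in 3 arrays. Summed over windows, covered bases were 317% and 185% of the wild-type mean in Dhx9 KO 1 and 2 for Cyp2j, 238% and 150.2% for Cyp4a/4b/4x and 144% and 207% for Cyp2c. The other 6 arrays lay between 75.2% and 138%. Clustered genes together had 142% and 128%, single genes 111% and 75.9% and all genes 97.3% and 81.8%. Base composition moved with coverage here too. Over all genes, covered bases were 122% and 166% of wild-type in the lowest GC quintile, 113% and 122% in the second, 96.3% and 87.1% in the third, 91.6% and 68.5% in the fourth and 91% and 50.1% in the highest. The 15 windows of the Cyp2c array had a median GC content of 38.5%. In the lowest quintile clustered Cyp genes had 208% and 200.3% (23 genes) and single genes 308% and 175% (4 genes), and in the second 156% and 133% (24 genes) and 83.6% and 233% (4 genes). The part of base composition in the Dhx9 KO values was not tested beyond these. The gap between clustered and single genes was 41.1 points on average, 22.8 with chromosomes 4 and 8 left out, 45.7 in the third GC quintile and -9.21 in the fourth.

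Cyp2j and Cyp4a lie on chromosome 4, where Dhx9 KO 1 stood apart. Over all genes of that chromosome, covered bases were 162% and 71.3% of the wild-type mean in Dhx9 KO 1 and 2, and over the 19 clustered Cyp genes there 261% and 160.2%. In Dhx9 KO 2 these Cyp genes were above wild-type while the chromosome was below. Their median GC content was 41.1% and that of the chromosome's genes 46%. In the 2 lowest GC quintiles of that library, all genes stood at 166% and 122% and clustered Cyp genes of any chromosome at 200% and 133%. The 55 clustered genes off chromosome 4 had 108% and 118%, and 19 of them had both Dhx9 KO libraries above both wild-type ones. The part of base composition in these Cyp values was not tested, nor was that of the chromosome-wide difference in Dhx9 KO 1.

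**Figure D5:**
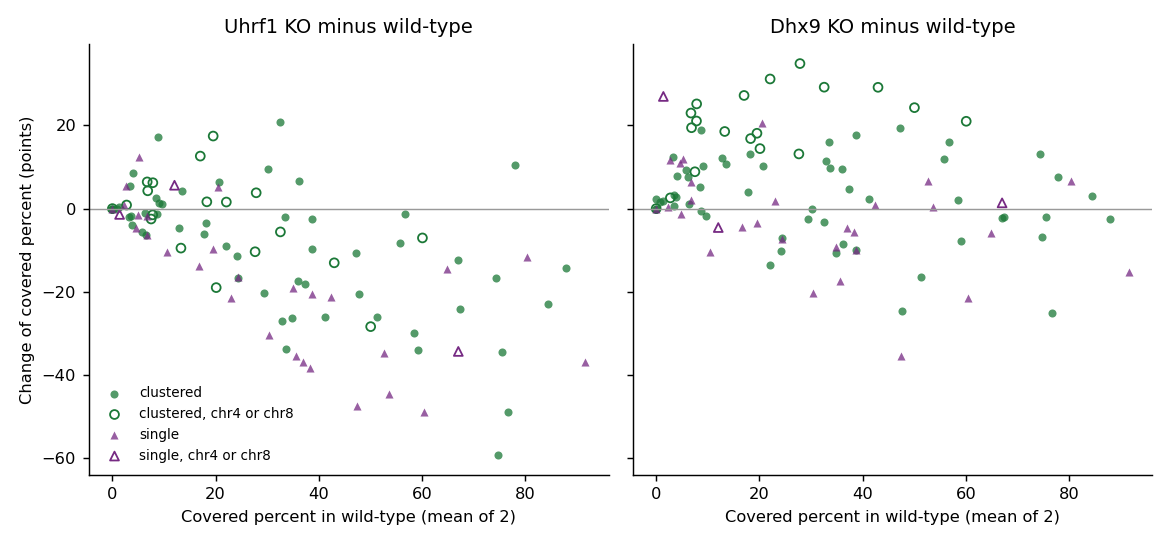
Difference in covered percent between the means of the knockout and wild-type libraries, in percentage points, against the wild-type mean, with 1 point for each Cyp gene and open symbols for genes on chromosomes 4 and 8. In the Dhx9 KO the 19 clustered genes on chromosome 4 have a median of 20.98 points and the 55 off it 2.24, and in the Uhrf1 KO the medians are 0 and -5.71.

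The 5 largest differences upward in the Dhx9 KO were all Cyp4a genes, fatty acid omega-hydroxylases controlled in liver by PPARalpha. Cyp4a32 had 29.8% and 26% in wild-type and 74.4% and 51% in the Dhx9 KO, a difference of 34.9 ± 10.5 percentage points (limma estimate ± SE, adjusted p = 0.494). Cyp4a10 had 23.7% and 20.5% and 71.8% and 34.7%, and the largest gained region of all, chr4:115514401-115527000, spanned its start site with 551 and 249 reads. Cyp4a31 had 41.8% and 44.2% and 80.4% and 63.9%, Cyp4a29 38.8% and 26.3% and 75.1% and 48.4%, and Cyp4a12a 18.2% and 15.9% and 50.2% and 38.3%. Both knockout libraries were above both wild-type libraries at all 5, and Dhx9 KO 1 was the higher of the pair each time. In the Cyp2j array Cyp2j8 had 10.5% and 5.14% and 43% and 23%, and Cyp2j5 had 8.13% and 5.56% and 32.9% and 19.7% with a start-site peak in the Dhx9 KO alone.

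In the Cyp2c array on chromosome 19 the higher library was mostly Dhx9 KO 2. Cyp2c67 had 9.16% and 8.36% in wild-type and 17.1% and 38.4% in the Dhx9 KO, Cyp2c54 20.9% and 20.5% and 22.3% and 39.8%, and Cyp2c66 11.8% and 15.2% and 19.7% and 28.7%. Of the 15 genes, 9 had both knockout libraries above both wild-type ones (background 10.8%) and 0 had both below (background 17.5%). Cyp2r1, the vitamin D 25-hydroxylase, among the single genes, had 18.8% and 22% and 37.7% and 44.3%, a difference of 20.6 ± 6.11 percentage points (limma estimate ± SE, adjusted p = 0.489). Cyp7a1, the first enzyme of bile acid synthesis, lies on chromosome 4 and had 2.79% and 0% and 49.3% and 7.44%, so its mean rests on Dhx9 KO 1. Cyp4v3 on chromosome 8 had 12.8% and 11.2% and 0% and 15%, in the library with little of chromosome 8 covered.

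Values below wild-type were fewer. Cyp17a1 had 48% and 47% in wild-type and 24% and 0% in the Dhx9 KO, a difference of -35.5 ± 10.4 percentage points (limma estimate ± SE, adjusted p = 0.489). Cyp26c1 had 38.6% and 22.1% and 19.8% and 0%, Cyp2t4 36.9% and 58.5% and 22.1% and 24.2%, and Cyp2d26 75.3% and 78.1% and 44.6% and 58.6%, each with both knockout libraries below. Cyp46a1 had 67% and 53.8% and 63.1% and 14.8%, and without Dhx9 KO 2 its difference changed sign to 2.72 points. The aryl hydrocarbon genes went apart between the libraries, with Cyp1a2 at 76.9% and 31.1% and Cyp1a1 at 36.6% and 13.4%, on either side of wild-type. Cyp1b1 kept 21.3% and 12.8% of its window and lost the peak at its start site. The groups overlapped or touched at the other 5 steroid genes, with 83.2% and 69.4% for Cyp21a1, 87% and 86.9% for Cyp11b2 and 49.3% and 37% for Cyp11a1.

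Of 363 merged regions at Cyp genes, 24 were gained in the Dhx9 KO, 6.61% against a background of 4.11%, and 9 were lost, 2.48% against 3.52%. Of the 24, 13 lay on chromosome 4 and 5 in the Cyp2c array. Gains were called in 22 of 274 regions at clustered genes (8.03%) and in 2 of 89 at single genes (2.25%). Of the 9 lost regions 5 lay in the Cyp3a array, among them chr5:145716201-145718200 at the start of Cyp3a41a (79 and 53 reads). Of the 13 regions called across at least 80% of their length in all 4 libraries, 0 passed edgeR's threshold (backgrounds 0.553% lower and 0.0425% higher over 4701 regions), 1 was lower (background 7.81%) and 1 higher (background 4.4%) at an unadjusted p under 0.05, and DESeq2 called 0. The higher one, chr4:96289401-96293800 at Cyp2j11, held 110 and 121 reads in wild-type and 208 and 154 in the Dhx9 KO, or 0.62 on the log2 scale (edgeR's quasi-likelihood test, Benjamini-Hochberg adjusted p = 0.202). The lower one, chr5:145574001-145579600 at Cyp3a41b, held 296 and 229 and then 202 and 183, or -0.52 on the log2 scale (edgeR's quasi-likelihood test, Benjamini-Hochberg adjusted p = 0.214). The wide Cyp3a41a region held 4273 and 6176 reads, a difference of -0.03 on the log2 scale (edgeR's quasi-likelihood test, Benjamini-Hochberg adjusted p = 0.969). The lost and gained regions could not enter this test.

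The 2 comparisons share their wild-type libraries, so a gene low or high in those moves in both, and the values are given side by side without a test. At Cyp17a1 the windows were covered over 48% and 47% in wild-type, 0% and 0% in the Uhrf1 KO and 24% and 0% in the Dhx9 KO. At Cyp2c67 the values were 9.16% and 8.36%, 27.6% and 24.3% and 17.1% and 38.4%. At Cyp2d11, low in the Uhrf1 KO, the Dhx9 KO had 65.9% and 70.1%, and at Cyp2e1 it had 41.6% and 23.6%. The region in the intron of Cyp2c67 at chr19:39627801-39629800 was absent from both wild-type lists and present in the other 4, with 42 and 71 reads in the Uhrf1 KO and 81 and 79 in the Dhx9 KO.

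Other genes of the P450 system were read from a fixed list. The 6 redox partners, among them Por (P450 reductase) and Fdxr (ferredoxin reductase), carried little H3K9me3, with a median of 0% and 0% in wild-type and a peak in 2 of the 6 windows. The 12 receptors and factors that control P450 genes, such as Ahr, Nr1i2 (the pregnane X receptor) and Ppara, had medians of 35.6% and 23.8% in wild-type and 0% and 9.15% in the Uhrf1 KO. Their covered bases were 9.30% and 38.6% of wild-type in the Uhrf1 KO libraries, with both libraries below wild-type at 6 of 12 (background 34.6%), and 101% and 57.4% in the Dhx9 KO. At the main setting none of these 18 genes, and no other gene of the annotation, passed limma's adjusted threshold in either comparison. That count of 0 rests on the setting. In the Uhrf1 KO comparison 1722 of 21095 genes were lower and 79 higher without flanks. On the log2(percent + 1) scale 3279 of 25929 were lower and 183 higher. In the Dhx9 KO comparison 55 of 35630 were lower and 27 higher without a filter.

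The other drug-metabolising families went several ways, to be read against backgrounds of 34.6% of all genes below and 5.6% above wild-type in the Uhrf1 KO, and 17.5% and 10.8% in the Dhx9 KO. In the Uhrf1 KO the 7 Gstm glutathione transferases had 5.11% and 28.8% of wild-type covered bases with 6 of 7 below, the 4 Gsta genes 8.48% and 54.6% with 3 of 4 below, the 8 Ces1 carboxylesterases 26.3% and 56.9% with 7 of 8 below, and the 8 Ces2 genes 43.1% and 79.5% with 4 of 8 below. The 8 Ugt1a glucuronosyltransferases had 89.4% and 106%, the 21 Sult sulfotransferases 88.1% and 86.8%, and the 7 Fmo monooxygenases 93.8% and 90.3% of a small wild-type amount. The 2 Ugt3a genes had 193% and 127% with 2 of 2 above. In the Dhx9 KO all 8 Ugt1a genes had both libraries above wild-type, at 161% and 147%, but their transcripts overlap and share peaks. Sult genes were above at 6 of 21 and below at 1 there. Ces1 lies on chromosome 8, as does Ces2, and they had 32.4% and 130.2% and 55.7% and 114%, low in Dhx9 KO 1 and above wild-type in Dhx9 KO 2. Ugt2 genes, also in tandem arrays, had almost no mark, with a median of 0% and 0% in wild-type.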

How the data were processed

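H3K9me3 was measured by ChIP-seq in wild-type, Uhrf1 KO and Dhx9 KO embryonic stem cells, with 2 libraries of each genotype, and the other samples of the series were not analysed here. The authors aligned reads to mm10 with Bowtie2 (version 2.3.4.3), kept duplicates, subsampled the libraries and called broad peaks in each library in bins of 200 bases with epic2 (the submitters' processing notes name SICER 0.0.51). Each deposited list gives ChIP and background read counts per peak, whole and not normalized. The deposited p-value and false discovery rate columns and the log2 fold over background come from the authors' peak caller, and only the false discovery rate and the log2 fold were used, as stricter limits.

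Windows were the transcripts of a gene in the deposited annotation, merged, plus 5 kb on each side. On chromosome 2 that annotation holds the reporter insert, so genes past it were placed from RefSeq on GRCm38.p6, where 2491 were found and 229 were left out. Of the Cyp genes this concerned Cyp24a1. A start-site peak lies within 1 kb of a start site. Lost means called in each wild-type library but in no knockout library, and gained the reverse. Covered percent was tested with limma 3.58.1 (trend) on genes with a covered base. Reads in merged regions covered to at least 80% in all 4 libraries were tested with edgeR 4.0.16 (quasi-likelihood) with called length as an offset. Both used R 4.3.3 over all genes or regions, with Benjamini-Hochberg adjustment at 0.05. The rest used Python 3.11.15, numpy 2.4.6, pandas 2.3.3 and pysam 0.24.0. DESeq2 1.42.0 was an alternative, beside stricter peaks, other flanks, neighbour distances and scalings, a replicate block and each library left out.

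Both tests were tested on simulated data of these libraries with 200 changed features. At 60 points limma called 0 of 200 in each comparison at the adjusted threshold and 184 to 199 at an unadjusted p under 0.05. At 2-fold edgeR called 189 of 200 for the Uhrf1 KO comparison (2528 regions, 12 false calls) and 183 of 200 for the Dhx9 KO comparison (4701 regions, 9 false calls). Regions lost or gained in a comparison were outside both the edgeR test and its simulation. Genes named are every cluster, the 10 highest means in wild-type, up to 10 genes with a lost or gained peak in each comparison, up to 5 windows and 5 regions with the largest difference each way, and a list of 37 genes by role. Members, lists and tests were chosen with earlier results of these data known. Smaller lost or gained regions and single genes named beside these were chosen after their values were seen. The lists hold reads in peaks only, so intervals for depth outside peaks cannot be given.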

Additional observations from a re-analysis of the deposited data

How the results depend on the processing

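Of the main results, 87 values under an alternative stayed near the value reported and 40 moved. Another 1 reversed the sign of a main value larger than the spread between libraries. Sign changes are given with their values. For single genes and regions 480 stayed, 43 moved, 8 passed a threshold that the main value had not, and 14 changed sign. The causes were not tested. The mean wild-type median over Cyp genes, 22.9%, was 14.2% with a false discovery rate of at most 1e-10, 9.22% with a log2 fold of at least 1, 10.9% with equal numbers of peaks per list, 21.6% without flanks and 24% with 20 kb flanks. The clustered minus single median of 0.984 points was 5.93 with the log2 fold limit, 6.16 with equal numbers, -3.44 without flanks and -2.33 with 20 kb flanks. The gap in retained bases was 9.35 points in the fourth GC quintile for the Uhrf1 KO (chosen after seeing the data, as were the chromosome and GC limits). For the Dhx9 KO it was 60.9 with the strict false discovery rate, 56.5 with equal numbers, 22.8 without chromosomes 4 and 8 and -9.21 in the fourth GC quintile, and leaving out each library gave 30.5 to 51.6.

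Lost and gained windows under the alternatives were counted over Cyp genes only, so these counts have no background of all genes beside them. Windows lost in the Uhrf1 KO (8) numbered 14 with the strict false discovery rate, 14 with the log2 fold limit, 4 with 20 kb flanks and 9 to 21 on leaving out each library, 21 without Uhrf1 KO 2. Gained windows (0) numbered 2 with equal numbers of peaks. In the Dhx9 KO lost windows (0) numbered 2 with the strict false discovery rate, 4 with the log2 fold limit, 4 with equal numbers, 1 without flanks and 0 to 3 on leaving out a library (3 without Dhx9 KO 1, 2 without Dhx9 KO 2, 1 without wild-type 2). Gained windows (1) numbered 0 with either limit on peaks, 0 with 20 kb flanks, 2 when 1 kb had to be covered and 1 to 5 on leaving out a library (3 without wild-type 1, 5 without wild-type 2). Cyp windows called by limma in the Uhrf1 KO (0) numbered 8 without flanks, 5 with 20 kb flanks, 7 on the log2(percent + 1) scale, 1 without a filter, and 0 to 11 on leaving out a library (11 without wild-type 1, 10 without wild-type 2). Regions called by edgeR (0) numbered 1 of 50 in the Uhrf1 KO with coverage over 50%, where 123 of all 16321 regions were lower and 67 higher. In the Dhx9 KO the count stayed at 0 with coverage over 50%.

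In the Dhx9 KO the Cyp46a1 difference was 2.42 points with equal numbers of peaks and lay between -45.6 (without Dhx9 KO 1) and 2.72 (without Dhx9 KO 2) on leaving out a library. Log2 differences of regions near 0 changed sign, with these ranges on leaving out a library: Cyp3a41b -0.242 to 0.0342, Cyp3a41a -0.233 to 0.155, the Cyp2d11 and Cyp2d10 region -0.0299 to 0.226, Cyp2d13 -0.0834 to 0.176, Cyp4f40 -0.166 to 0.192 and Cyp2c53-ps -0.175 to 0.629. Cyp3a41a was 0.0417 with all 6 libraries in one fit, the Cyp2d11 and Cyp2d10 region -0.0234 without the length offset, and Cyp4f40 -0.108 without the offset and -0.0308 with coverage over 50%.

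The replicate block left 0 Cyp calls in all 4 tests, with 14 windows lower and 0 higher at an unadjusted p under 0.05 in the Uhrf1 KO and 2 lower and 4 higher in the Dhx9 KO. The labels do not say that same-numbered libraries share a batch, and their deviations correlated at -0.0256 and 0.0371 in covered percent and at 0.659 and 0.428 in log2 reads per called length. Uhrf1 KO 1 had the fewest reads in peaks, and the reads outside peaks that would give its depth were not analysed here.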
